A study of Schizosaccharomyces pombe with 97 samples.

Results

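The 10 genes described here encode enzymes of the fission yeast glycolytic pathway. They were taken by name from the gene count table, which lists 7014 genes, and all 10 were among the 6608 genes with enough reads to be tested. In the order of the pathway they were *hxk2*, *pgi1*, *pfk1*, *fba1*, *tpi1*, the paired genes *tdh1* and *gpd3* for glyceraldehyde-3-phosphate dehydrogenase (GAPDH, the step that makes NADH), *pgk1*, *eno101* and *pyk1*.

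Glycolysis splits glucose into pyruvate in the cytoplasm and yields ATP and NADH. In fermenting yeasts it is the main source of ATP, and its transcripts are among the most abundant in growing cells. Fission yeast cells deprived of nitrogen divide without growing, arrest before DNA replication and, with no mating partner, stay alive in quiescence (G0) on the glucose that remains in the medium.

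RNA depleted of ribosomal RNA was sequenced in 81 libraries from 7 *Schizosaccharomyces pombe* strains, 3 cultures (A, B and C) for each of 27 groups. The mutants were *hht2∆* (1 of the genes for histone H3), *pht1∆* (histone variant H2A.Z), *iec1∆* and *ies2∆* (subunits of the chromatin remodeller Ino80C), *arp42∆* (an actin-related protein, studied as an Ino80C-related mutant) and *asp1∆* (an inositol polyphosphate kinase). The wild type was *smt0*. Cultures were sampled in minimal medium before nitrogen was withdrawn (T0), and again in nitrogen-free medium after 24 h (T1D), after 1 week (T1W) and after 2 weeks (T2W), with *ies2∆* taken at T0, T1D and T1W only.

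All strains, *smt0* included, carried the *smt0* mutation, which stops mating type switching, were of mating type minus and needed no added amino acids or bases. Each mutant was 1 strain, a deletion marked with kanMX4 from a deletion collection, crossed into this background. The strains were compared to ask how chromatin factors needed in long quiescence shape its RNA. The *ies2∆* libraries formed a second batch with no *smt0* of its own, so that strain and batch cannot be told apart there. Synthetic ERCC transcripts were spiked in at an amount set by the count of vegetative cells.

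Levels are given on a pair of scales. The relative level of a gene is its CPM (reads scaled to a fixed total of gene reads), adjusted by the trimmed mean of M values (TMM), and says how the gene stood against the other genes of the same library. The ERCC level is its reads per 1000 reads of added ERCC transcripts, and says how much RNA of the gene there was against the amount added. In bulk RNA of this kind, fewer cells and less RNA per cell cannot be told apart. A gene was called changed where the Benjamini-Hochberg adjusted *P* of edgeR's quasi-likelihood test over all 6608 genes was under 0.05, and each number of glycolysis genes called is read against the share of all tested genes called the same way.

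Gene reads per library lay between 1980570 and 18992894. In *smt0* cultures the gene reads per ERCC read were 825, 899 and 928 at T0, 672, 283 and 144 after 1 day, 35.3, 18.8 and 3.87 after 1 week, and 23.7, 31.2 and 7.01 after 2 weeks. Culture C held the least of the starved cultures at each time. Reads of the deleted gene in the mutants are given as a percentage of the mean of *smt0* at the same time. They were 3.37 to 8.92 in *asp1∆*, 38.2 to 118 in *pht1∆* and 52.6 to 145 in *iec1∆*. In *arp42∆* they were 16.7, 9.63 and 34.1 at T0 (cultures A, B and C) and 45.8 to 96.4 in the starved libraries. The exon length outside the coding sequence was 10.7% in *asp1*, 56.4% in *arp42*, 66.8% in *pht1* and 48.3% in *iec1*. Whether the *pht1∆*, *iec1∆* and starved *arp42∆* libraries lack the gene was not settled by these reads, and the labels are used as given. In *hht2∆* the percentage was 15.1 to 36.6 in the culture A libraries and 14.6 in T2W culture C, and under 1 in the others. In *ies2∆* it was 217 in T0 culture C, 37.3 in T1D culture B and between 0.923 and 10.1 in the others. Results that rest on the culture A libraries of *hht2∆*, on its T2W culture C or on T0 culture C or T1D culture B of *ies2∆* are also given without them. The log2 fold changes of *ies2∆* over the first day are given without T0 culture C only, with T1D culture B kept. In *pht1∆*, *iec1∆* and starved *arp42∆* every library was at 38.2 or above, and no part of these groups was left out on that ground. The T0 libraries of *arp42∆*, at 9.63 to 34.1, were not left out on that ground either.

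The GAPDH genes are alike in sequence, which bears on how their reads were counted. In the RefSeq genome (ASM294v3) the coding sequences of *gpd3* and *tdh1* were identical at 940 of 1008 positions (93.25%). Their longest identical run is shown because a single read end that lies within it matches both genes alike. It is 203 bases long, coding positions 577 to 779, at chrII:579307-579509 in *gpd3* and chrII:2808213-2808415 in *tdh1*, both on the plus strand.
gpd3 and tdh1 shared run: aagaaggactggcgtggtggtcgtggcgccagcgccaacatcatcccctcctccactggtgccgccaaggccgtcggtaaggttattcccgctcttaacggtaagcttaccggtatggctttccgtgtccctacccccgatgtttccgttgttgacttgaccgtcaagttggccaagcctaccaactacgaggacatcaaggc
Of the 951 windows of 58 bases in the *gpd3* coding sequence, the length of 1 sequenced read end, 202 (21.2%) also occurred in *tdh1*. Reads were sequenced in pairs, and the other read of a pair can lie outside the run. The treatment of reads that map to both is not given in the sources used here, so the split between these genes is uncertain to a degree that was not measured. No 58-base window was shared by *hxk2* with *hxk1* or by *eno101* with *eno102*, whose coding sequences were 60.4% and 63.78% identical.

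The 250 bases before the RefSeq gene start are shown for *gpd3*, *tdh1* and *pgk1*, the genes whose levels moved furthest at T1D. They lie at chrII:577867-578116 (plus strand), chrII:2807345-2807594 (plus) and chrII:4159462-4159711 (minus). The RefSeq span equalled that of the count table for 1 of the 10 genes (*tpi1*) and for 28.98% of the genes found in both. The RefSeq start can thus differ from the start of the counted gene. Capitals mark TATAAA (the TATA box) and, in *pgk1*, a match on the other strand to TGACGT (the core of the Atf1-Pcr1 site).
gpd3 upstream: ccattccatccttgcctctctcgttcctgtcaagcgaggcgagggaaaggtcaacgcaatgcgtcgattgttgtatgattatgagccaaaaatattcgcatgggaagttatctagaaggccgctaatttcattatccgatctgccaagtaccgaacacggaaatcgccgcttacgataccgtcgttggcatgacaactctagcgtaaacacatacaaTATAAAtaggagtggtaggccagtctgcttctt
tdh1 upstream: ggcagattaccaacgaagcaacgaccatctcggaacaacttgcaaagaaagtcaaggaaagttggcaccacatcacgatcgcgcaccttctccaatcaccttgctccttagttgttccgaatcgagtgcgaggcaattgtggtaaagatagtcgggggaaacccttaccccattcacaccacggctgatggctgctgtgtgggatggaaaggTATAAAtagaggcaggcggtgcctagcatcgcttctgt
pgk1 upstream: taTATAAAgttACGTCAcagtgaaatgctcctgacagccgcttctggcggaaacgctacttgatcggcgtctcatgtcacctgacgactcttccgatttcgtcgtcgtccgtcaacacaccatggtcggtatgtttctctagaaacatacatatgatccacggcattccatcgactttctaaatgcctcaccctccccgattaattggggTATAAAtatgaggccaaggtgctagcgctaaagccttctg
A TATAAA began 33 bases before the start of *gpd3*, 38 before *tdh1*, and 40 and 248 before *pgk1*, and *pyk1* had a match on the other strand at 33 bases before its start. On either strand TATAAA was in the windows of 4 of the 10 genes and of 44.4% of 5112 genes. TGACGT was in 3 of 10 (*pfk1*, *fba1*, *pgk1*), with 5.52% of all genes, and CCCCT (the core of the stress response element) in 3 of 10 (*fba1*, *tpi1*, *eno101*), with 8.26%. None of the 10 windows held GATAAG, the site of GATA factors, which 10.2% of all genes had.

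By the annotation of the count table (ASM294v2), 7 of the genes lie on chromosome II, among them *gpd3* at 578063 to 580056 and *tdh1* at 2807534 to 2809051, both on the plus strand. *hxk2* and *pyk1* are on chromosome I and *tpi1* on chromosome III. *gpd3* has 2 exons there and each of the other 9 genes has 1. SPBC354.11c lies on the opposite strand across 661 bases of *gpd3*. Its reads came to 2.08% of those of *gpd3* in total and to at most 19.4% in any library.

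In growing *smt0* cells (T0) *gpd3* was by far the least abundant of the 10 transcripts, and *tdh1* gave most of the GAPDH reads. Per kb of exon, the mean relative levels were 3405 ± 807 CPM for *fba1* (fructose-bisphosphate aldolase), 3127 ± 657 for *pyk1* (pyruvate kinase), 2809 ± 192 for *tdh1* and 2450 ± 228 for *eno101* (enolase), with SD and n = 3. They were 1917 ± 479 CPM per kb for *pgk1* (phosphoglycerate kinase) and 1871 ± 388 for *tpi1* (triosephosphate isomerase). The genes for the first steps were lower, at 517 ± 101 CPM per kb for *pgi1* (glucose-6-phosphate isomerase), 464 ± 89.9 for *pfk1* (phosphofructokinase) and 253 ± 25.9 for *hxk2* (hexokinase). *gpd3* was last at 39.2 ± 4.22. The neighbours *fba1* and *pyk1*, *pyk1* and *tdh1*, *pgk1* and *tpi1*, and *pgi1* and *pfk1* differed by less than the larger of their SDs. After a day without nitrogen *gpd3* stood sixth, at 553 ± 127 CPM per kb, and *hxk2* last at 142 ± 39.7. *gpd3* was seventh at T1W (552 CPM per kb) and sixth at T2W (413 ± 45.5). The order depends on the exon lengths of the count table, which for *hxk2* is 3051 bases beside a coding sequence of 1368 bases.

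**Figure D1:**
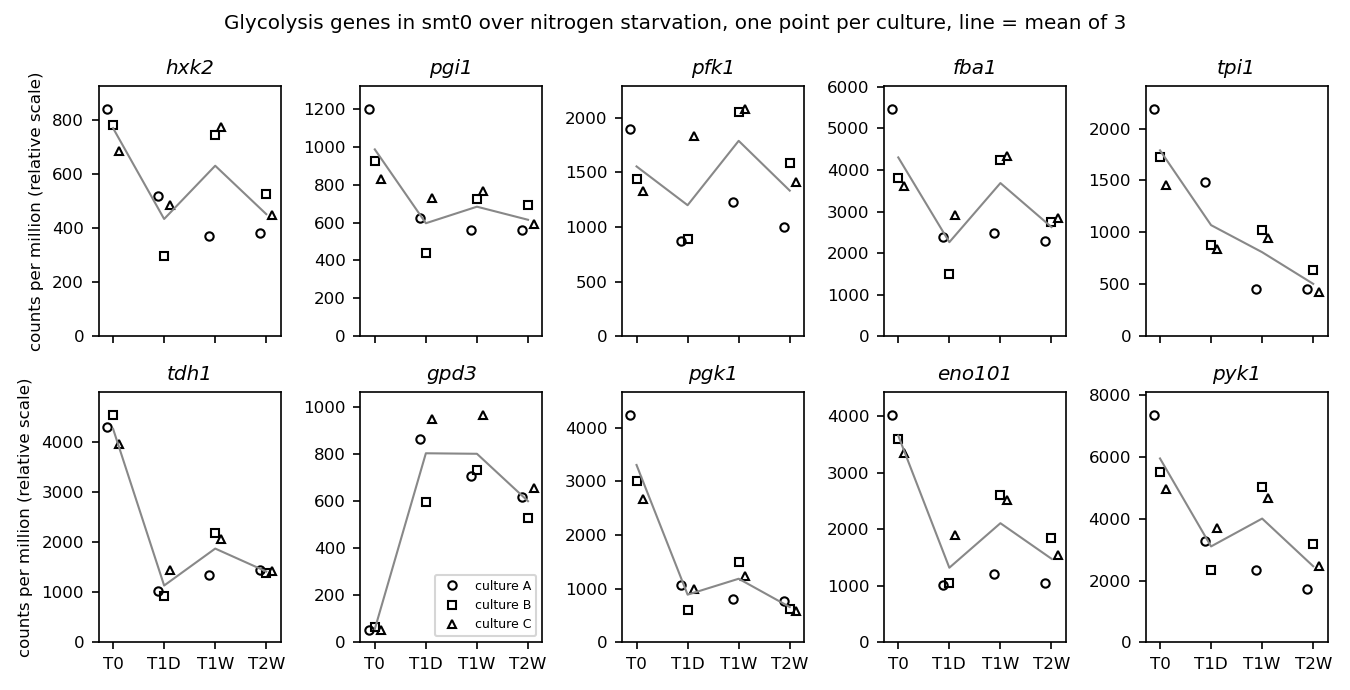
Relative level (CPM, linear axes from 0) of the 10 glycolysis genes in *smt0* at T0, T1D, T1W and T2W, 1 panel per gene, with a point for each of 3 cultures and a line through their means. *gpd3* lay at 53.3 to 63.9 CPM at T0 and at 526 CPM or above in every starved culture, while *tdh1* lay at 3960 to 4540 CPM at T0 and at 2193 or below afterwards.

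Nitrogen starvation split the GAPDH genes. At T1D *gpd3* had 866, 596 and 947 CPM, against 53.4, 63.9 and 53.3 CPM at T0. Every starved culture was far above every growing one, a log2 fold change of 3.82 (SE 0.271, adjusted *P* = 2.93e-18) or 14.1-fold. The T0 values rest on 340, 546 and 301 reads. *tdh1* moved the other way, with 1031, 936 and 1439 CPM at T1D, against 4291, 4540 and 3960 CPM at T0, and the groups did not overlap (log2 fold change -1.91, SE 0.259, adjusted *P* = 7.07e-09).

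Most of the other genes fell as well. Relative to all genes, 8 of the 10 were lower at T1D and 1, *gpd3*, was higher, while 26.9% of all tested genes were lower and 27.1% higher. The fall was -1.89 for *pgk1* (adjusted *P* = 1.48e-07) and -1.47 for *eno101* (4.52e-05) on the log2 scale. It was between -0.94 and -0.73 for *pyk1*, *fba1*, *hxk2*, *tpi1* and *pgi1*. *pfk1* changed by -0.37 and did not pass (adjusted *P* = 0.155). The median of the 10 genes was -0.88, against 0.02 for all tested genes. Culture B at T1D decided some of this, since without it the calls of *hxk2* (-0.57), *pgi1* (-0.51), *tpi1* (-0.58) and *pyk1* (-0.73) were lost and 5 of 9 remained. Without T0 culture A the calls of *pyk1*, *pgi1* and *tpi1* were lost, and without T1D culture C that of *tpi1* (-0.58).

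On the ERCC scale the picture at T1D was the same in outline. *gpd3* had 566, 187 and 138 reads per 1000 ERCC reads at T1D, against 39.5, 47.5 and 43.8 at T0, and was 6.80-fold higher (log2 fold change 2.77, SE 0.704, adjusted *P* = 0.00184), where 2.24% of all tested genes were higher. *tdh1* had 673, 293 and 210 at T1D, against 3175, 3376 and 3255 at T0 (log2 fold change -3.06, adjusted *P* = 0.00095). Culture C was the lowest of the starved cultures for both genes. In all 7 genes were lower, where 21.4% of all tested genes were, and *pfk1* (-1.67, adjusted *P* = 0.0578) and *tpi1* (-1.58, adjusted *P* = 0.0727) were the ones that did not pass. The study drew the T0 and the T1D cells from the same cultures, but whether a letter marks a culture is not given in the sources used here. With the culture letter within a strain as a block (replicate block) both passed, *pfk1* at -1.77 (adjusted *P* = 0.0162) and *tpi1* at -2.10 (adjusted *P* = 0.00669), so that 10 genes were called. Deviations from the group means at T1D and T0 correlated at -0.0695, 0.0639 and 0.0386 in the 3 letters. Whether this block pairs cultures is thus uncertain. The median of the 10 genes was -1.91, against -1.05 for all tested genes. Without T0 culture A, T1D culture B or T1D culture C the number called was 4 in place of 8, *hxk2*, *pgi1*, *fba1* and *pyk1* being lost, and it was 6 without T0 culture B or C. The rise of *gpd3* was called each time.

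**Figure D2:**
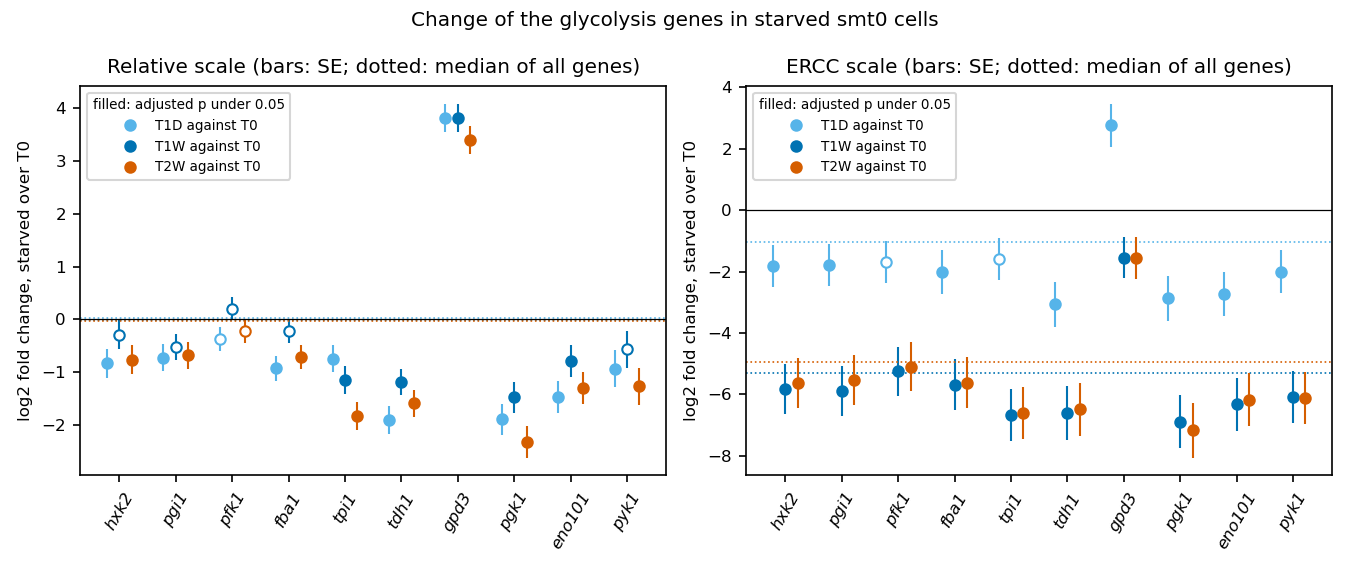
Log2 fold change (bar, SE) of each gene in *smt0* after 1 day, 1 week and 2 weeks against T0 on the relative and the ERCC scale, with filled points for adjusted *P* under 0.05 and dotted lines for the median of all genes. On the relative scale *gpd3* stands at 3.82, 3.81 and 3.40 while the other genes lie between -2.33 and 0.20.

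The relative level of *gpd3* was also high after 1 and 2 weeks. It had 707, 730 and 966 CPM at T1W and 619, 526 and 654 CPM at T2W, so the means were 56.9 ± 6.12, 803 ± 184, 801 ± 143 and 600 ± 66.1 CPM from T0 to T2W (SD, n = 3). Each starved group stayed above T0 without overlap, with log2 fold changes of 3.81 at T1W (adjusted *P* = 2.24e-18) and 3.40 at T2W (adjusted *P* = 6.93e-17). It was the only member called higher at either time, where 29.3% of all tested genes were higher at T1W and 31.0% at T2W.

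The lowest member was then *pgk1*. It had 810, 1502 and 1245 CPM at T1W and 776, 623 and 577 CPM at T2W, compared to 4234, 3014 and 2661 CPM at T0. Neither starved group overlapped with T0, with log2 fold changes of -1.48 (adjusted *P* = 1.2e-05) and -2.33 (adjusted *P* = 6.8e-10). *tdh1* averaged 1873 ± 454 CPM at T1W and 1416 ± 26.4 CPM at T2W, with log2 fold changes of -1.19 and -1.59.

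At T1W 4 of the 10 genes were lower, *tpi1* (-1.15), *tdh1*, *pgk1* and *eno101* (-0.79), where 30.5% of all tested genes were lower. *hxk2* (-0.29), *pgi1* (-0.53), *fba1* (-0.22), *pyk1* (-0.57) and *pfk1* (0.20) did not pass. At T2W 8 genes were lower, where 32.6% of all tested genes were, and *pfk1* (-0.22) was again the one that did not pass. The median of the 10 genes was -0.55 at T1W and -1.02 at T2W, and that of all tested genes -0.02 and -0.03. The call of *eno101* at T1W was lost without T1W culture A (-0.53), and at T2W that of *hxk2* without T2W culture A (-0.64) and that of *fba1* without T0 culture A (-0.48). The T2W call of *pgi1* was lost without T0 culture A (-0.50) or T2W culture A or C.

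Measured against the ERCC reads, *gpd3* was not higher at these times. It was lower at both times, with 27.3, 13.5 and 4.06 reads per 1000 ERCC reads at T1W and 18.2, 20.7 and 5.74 at T2W (log2 fold changes -1.55 each, adjusted *P* = 0.0225 and 0.0226). All 10 genes were lower on this scale, as were 97.3% of all tested genes at T1W and 96.1% at T2W, and 0.257% and 0.318% were higher. The other 9 genes changed by -6.88 to -5.24 at T1W and by -7.17 to -5.09 at T2W, with medians of -5.29 and -4.94 over all tested genes. The *gpd3* call at T1W was lost without T1W culture B (-1.48) or C (-1.10), and that at T2W without T2W culture C (-1.16).

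The share of each GAPDH gene in the reads of both can be read within a library, where no scaling enters. Per kb of exon, *gpd3* gave 1.29%, 1.45% and 1.39% of the GAPDH reads of *smt0* cultures at T0. After 1 day the shares were 46.8%, 40.0% and 40.8%. They were 35.3%, 25.8% and 32.8% after 1 week and 31.1%, 28.4% and 32.5% after 2 weeks. The gene that gave almost none of the GAPDH reads in growth thus gave at least 25.8% of them in each starved culture. The summed level of both genes was 1301 ± 288 CPM per kb at T1D, against 2848 ± 195 at T0 (SD, n = 3). In each pair of groups compared the exact two-sided permutation test gave *P* = 0.1 at best, the smallest that 3 against 3 cultures allow (0.134 adjusted over 43 comparisons).

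**Figure D3:**
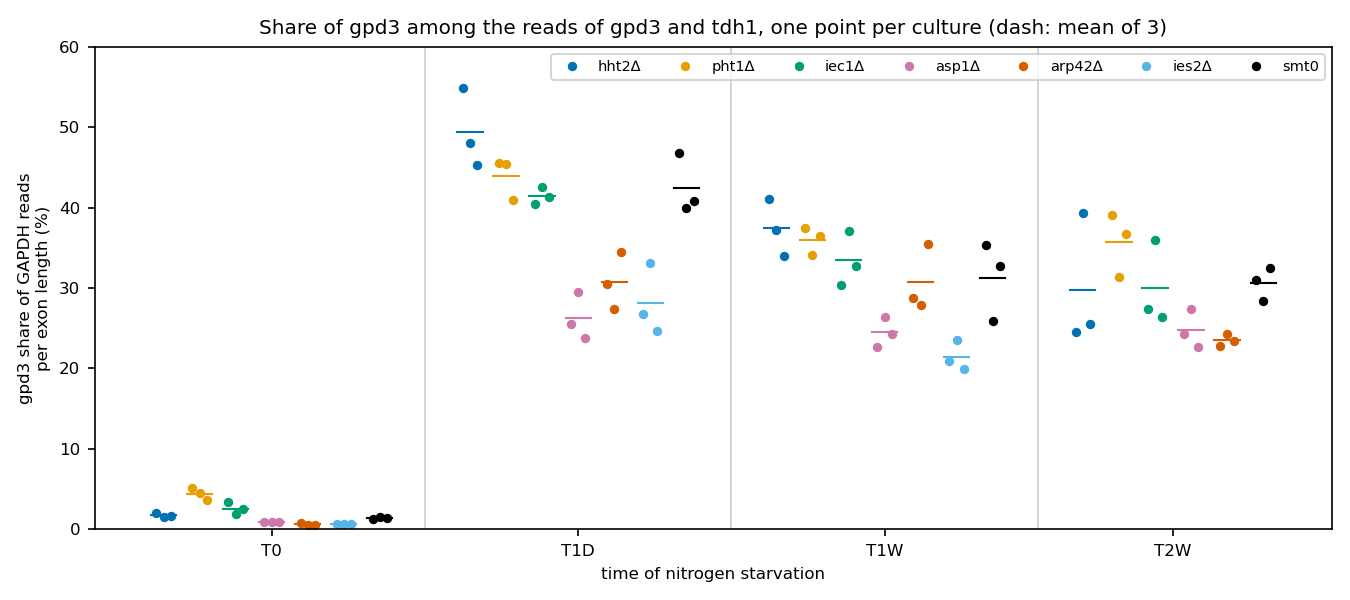
Share of GAPDH reads per kb of exon that came from *gpd3* (percent) in each culture of the 7 strains at T0, T1D, T1W and T2W, with a dash for the group mean. The share was at most 5.07% in any T0 culture and between 20.0% and 54.9% in the starved cultures.

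The 10 genes together took 1.37%, 1.10% and 1.64% of gene reads at T1D, against 2.90%, 2.39% and 2.16% at T0. They took 1.26%, 2.09% and 2.18% at T1W and 1.16%, 1.43% and 1.43% at T2W. Only the T1W values overlapped with those of T0, and the exact permutation *P* was 0.1 for the others, the smallest possible (0.172 adjusted over 43 comparisons).

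The genes around the pathway moved both ways in *smt0*. Of the 4 other genes for its steps or their reversal, *hxk1* (second hexokinase, -0.82) and *gpm1* (phosphoglycerate mutase, -1.35) were lower at T1D on the relative log2 scale. *eno102*, a second enolase gene, was higher (2.93), while *fbp1*, for the gluconeogenic fructose-1,6-bisphosphatase, was not called (0.14). *eno102* had 43, 46 and 8 reads at T1D, against 0, 5 and 5 at T0, so its fold change at T1D rests on few reads. Its reads were 741, 67 and 256 at T1W and 1360, 250 and 242 at T2W. The mean relative levels were 0.490, 3.62, 73.4 and 161 CPM from T0 to T2W (log2 fold changes 7.18 at T1W and 8.31 at T2W). The calls of *eno102* and *hxk1* at T1D were lost without T0 culture A (2.40) and without T1D culture B (-0.69). *gpm1* stayed lower (-1.49 and -2.11). *fbp1* had 24.8, 16.5 and 28.9 CPM at T1W and 105, 14.1 and 18.2 CPM at T2W, against 5.34, 11.01 and 9.39 CPM at T0, and was called higher at both times (1.45 and 2.42). At T2W the call rests on culture A, and without it the change was 0.92 and did not pass (adjusted *P* = 0.24). At T1W the *fbp1* call was lost without any single T0 culture or T1W culture A or C. In ERCC terms *fbp1* was lower at both times (-3.87 and -2.39), whereas *eno102* was higher at both (2.56 and 3.53). Without T1W culture A *eno102* changed by -0.49 at T1W on this scale and did not pass.

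Past pyruvate 1 gene stood out on the relative scale. Of 5 tested pyruvate decarboxylase and alcohol dehydrogenase genes, *pdc201* had mean levels of 8.05, 442, 1080 and 1326 CPM from T0 to T2W (log2 fold changes 5.77, 7.06 and 7.35). At T2W its cultures had 2517, 573 and 887 CPM, so the mean was 730 CPM and the change 6.53 without culture A. *pdc202* was higher at T1W and T2W, and *adh4* was lower at all 3 times, its call at T1D being lost without T1D culture A or C. *adh1* was lower at T2W (-1.01, adjusted *P* = 0.0066), and *pdc101* was not called at any time. Without T2W culture A 1 of the 5 genes was called lower at T2W, in place of both *adh1* and *adh4*. In ERCC terms *pdc202* was lower at T1W (-3.25) and T2W (-2.30), and *pdc201* was higher at all 3 times (4.85, 1.94 and 2.50). The later *pdc201* calls on this scale rest on culture A, with changes of 0.65 at T1W and 1.30 at T2W that did not pass without culture A of that time. All 5 pyruvate dehydrogenase complex genes, which turn pyruvate into acetyl-CoA, were lower at T1D and 4 of 5 at T1W and T2W on the relative scale, where 26.9%, 30.5% and 32.6% of all tested genes were lower from T1D to T2W. Of 4 tested pentose phosphate genes, 4 were lower at T1D and 3 at T1W and T2W, and of 6 trehalose and glycerol genes 5, 4 and 5 were lower from T1D to T2W, beside the same shares of all tested genes. Without T0 culture A or any single T1W culture the pentose phosphate count was 2 at T1W. At T2W the count was 2 without T0 culture A or T2W culture A or C.

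Of 6 genes that mark dividing cells (*cdc18*, *cdc22*, *cig2*, *cdt1*, *hta1*, *htb1*), 3 were lower at T1D and 5 at T1W and T2W on the relative scale, with median log2 fold changes of -0.36, -1.39 and -1.61, where 26.9%, 30.5% and 32.6% of all tested genes were lower. At T1D *cdt1* (0.62), *cdc18* (0.43) and *cdc22* (-0.25) did not pass. Without T1D culture A 2 of the 6 were called higher and 2 lower at T1D. The summed level of the 6 genes was 937 to 1333 CPM at T1D, 739 to 1028 at T1W and 771 to 795 at T2W, compared to 1572 to 1628 CPM at T0, and none was at 0. Their part in the changes of the glycolysis genes was not tested.

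Over the means of all 27 groups and 6081 genes with at least 10 reads on average, the pattern of *gpd3* was most like those of *xan1* (Pearson's *r* = 0.924), *adl1* (0.921), SPAC4G8.04 (0.920) and the antisense transcripts named *ubp16-antisense-1* (0.919) and *spo14-antisense-1* (0.916). With the other 9 glycolysis genes *gpd3* had *r* between -0.62 (*tpi1*) and -0.04 (*pfk1*). The pattern of *pgk1* was most like those of SPAC29A4.02c (0.945), *gpm1* (0.943), *sum2* (0.929), *sec13* (0.928) and *fyu1* (0.921), and its *r* with the other members ran from 0.66 (*pfk1*) to 0.92 (*eno101*) apart from *gpd3* (-0.56). These correlations are descriptions, since all groups share the time course.

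On the relative scale the GAPDH genes moved opposite ways in every strain. In each of the 6 mutants *gpd3* was higher at T1D compared to T0 of the same strain on the relative scale, with log2 fold changes of 4.35 in *hht2∆*, 2.25 in *pht1∆*, 3.45 in *iec1∆*, 4.00 in *asp1∆*, 5.19 in *arp42∆* (36.5-fold) and 4.63 in *ies2∆*, adjusted *P* between 3.8e-11 and 8.72e-23. The shares of all tested genes called higher were 28.9%, 27.6%, 27.2%, 27.1%, 29.4% and 28.0% in the same order of strains. *tdh1* was lower in each, by -1.43, -1.86, -1.35, -1.24, -0.94 and -1.24 in that order (adjusted *P* between 1.2e-08 and 0.00105). Without the culture A libraries of *hht2∆* and T0 culture C of *ies2∆* the change of *gpd3* was 4.52 in *hht2∆* and 4.46 in *ies2∆*, and both were called. The *ies2∆* value still includes T1D culture B. In ERCC terms *gpd3* was higher in *hht2∆* (4.66, and 4.24 without culture A), where 7.2% of all tested genes were higher. It was higher in *ies2∆* too (4.68, and 4.46 without T0 culture C, with 4.59% of all tested genes higher), but with the shift of that batch applied at T0 only it changed by 0.98 and was not called. It was lower in *pht1∆* (-1.62), *asp1∆* (-1.62) and *arp42∆* (-1.54), where 94.4%, 97.9% and 98.7% of all tested genes were lower, and was not called in *iec1∆* (-1.09), where 95.9% were. The *asp1∆* call was lost without T1D culture C (-1.47), and that of *arp42∆* without T0 culture B (-1.21) or T1D culture A (-1.46) or B (-1.29). *tdh1* was lower in ERCC terms in *pht1∆* (-5.71), *iec1∆* (-5.85), *asp1∆* (-6.87) and *arp42∆* (-7.77), and was not called in *hht2∆* (-1.21, adjusted *P* = 0.283) or *ies2∆* (-1.17, adjusted *P* = 0.371). These comparisons within a strain do not involve *smt0*. In *arp42∆* the reads of the deleted gene were at 9.63 to 34.1% of *smt0* at T0 and at 70.2 to 96.4% at T1D.

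**Figure D4:**
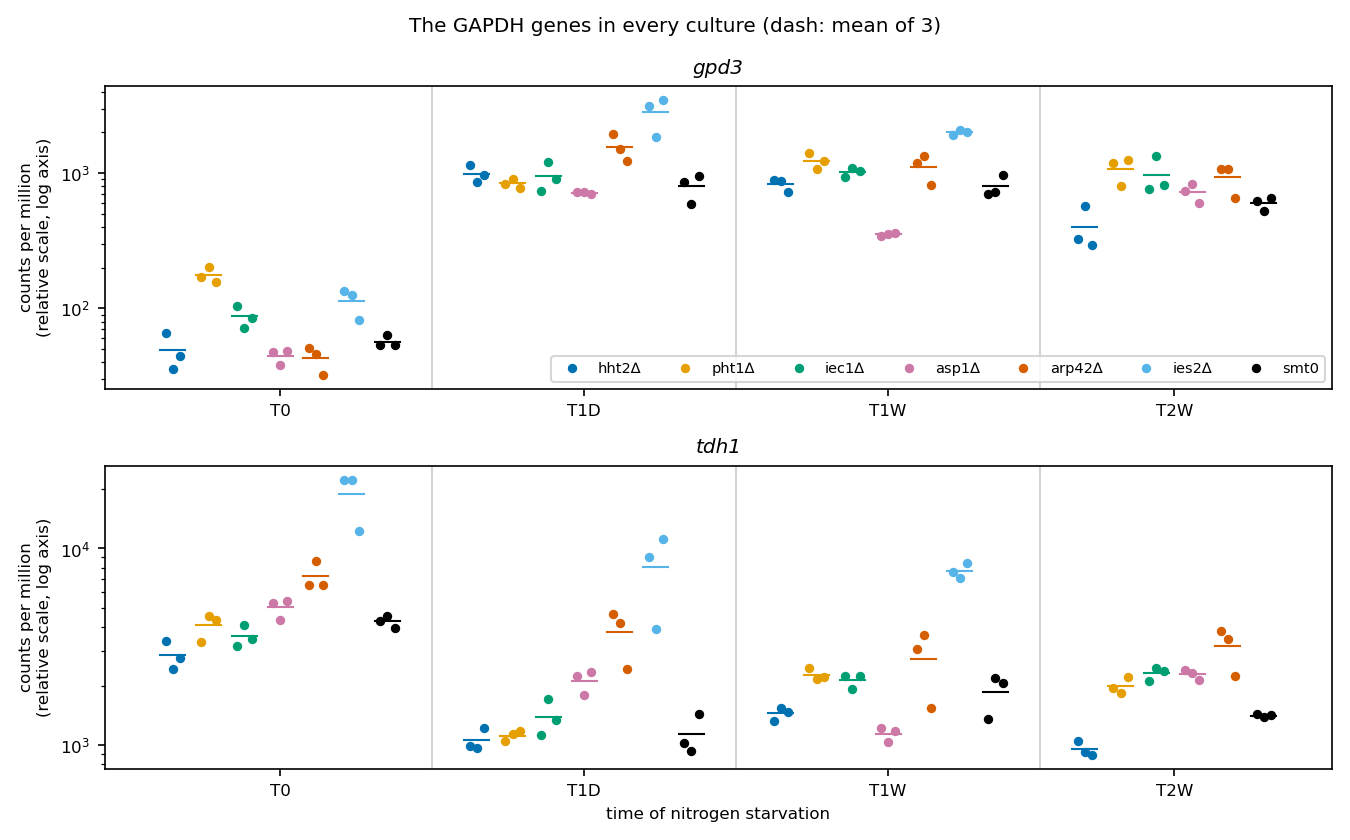
Relative level (CPM, log axis) of *gpd3* and *tdh1* in the cultures of the 6 mutants and *smt0* at T0, T1D, T1W and T2W, with a dash for the mean of 3. *gpd3* stays between 31.9 and 202 CPM at T0 in all strains and lies at 292 CPM or above in every starved culture, while *tdh1* is highest in *ies2∆*, at 12316 to 22379 CPM at T0.

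Before starvation *gpd3* was already higher in *pht1∆*. It had 171, 202 and 158 CPM in *pht1∆*, against 53.4, 63.9 and 53.3 CPM in *smt0*, and the groups did not overlap. The log2 fold change was 1.64 (SE 0.25, adjusted *P* = 3.92e-06), and 4.34% of all tested genes were higher in *pht1∆*. It was the only one of the 10 genes called there, and its ERCC change was 1.42 and not called. The *gpd3* share of GAPDH reads was 4.39 ± 0.709% in *pht1∆* at T0, against 1.38 ± 0.0843% in *smt0*. After a day the levels met, with 836, 908 and 780 CPM in *pht1∆*, against 866, 596 and 947 CPM in *smt0*. The rise over the day was smaller in *pht1∆* by 1.57 on the log2 scale (difference of the changes -1.57, SE 0.345, adjusted *P* = 0.00473). A negative difference was called for 0.772% of all tested genes.

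No glycolysis gene was called in *pht1∆* at T1D or T1W on the relative scale, where 7.7% and 4.18% of all tested genes were called in either direction. At T2W *gpd3* alone was higher in *pht1∆*, with 1197, 804 and 1241 CPM, against 619, 526 and 654 CPM in *smt0* (log2 fold change 0.85, adjusted *P* = 0.012, with 8.1% of all genes higher). Its ERCC change was -0.36, and the call was lost without *pht1∆* culture A (0.78) or *smt0* culture B (0.77).

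In *iec1∆* none of the 10 genes was called at T0, T1D or T1W on the relative scale, where 6.84%, 15.5% and 0.53% of all tested genes were called. *gpd3* had 105, 72.1 and 85.6 CPM in *iec1∆* at T0, above all of *smt0*, and did not pass. At T2W, *pgk1* had 1056, 1589 and 1177 CPM in *iec1∆*, against 776, 623 and 577 CPM in *smt0* (log2 fold change 0.95, adjusted *P* = 0.00746), with no overlap. *tdh1* had 2114, 2470 and 2396 CPM in *iec1∆*, against 1437, 1386 and 1424 CPM in *smt0* (0.72, adjusted *P* = 0.0221). *gpd3* had 763, 1327 and 823 CPM in *iec1∆*, against 619, 526 and 654 CPM in *smt0* (0.69, adjusted *P* = 0.0214). These 3 of 10 genes were higher where 17.0% of all tested genes were. Their ERCC changes were -0.22, -0.44 and -0.35. The *tdh1* call was lost without *iec1∆* culture B or C or *smt0* culture B or C, and that of *gpd3* without *iec1∆* culture B (0.37) or *smt0* culture B. In a fit of these groups alone none of the 3 passed, with adjusted *P* of 0.103 for *pgk1*, 0.143 for *tdh1* and 0.185 for *gpd3*.

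In *hht2∆* none of the 10 genes was called at T0, T1D or T1W on the relative scale (4.65%, 0.409% and 0.53% of all tested genes in either direction). Without the culture A libraries 0 were called at each of these times on either scale. At T2W 7 of 10 were lower, where 21.7% of all tested genes were. *fba1* had 661, 1425 and 759 CPM in *hht2∆*, against 2293, 2745 and 2844 CPM in *smt0* (log2 fold change -1.47, adjusted *P* = 1.59e-06). *eno101* had 325, 1158 and 300 CPM in *hht2∆*, against 1046, 1851 and 1547 CPM in *smt0* (-1.32). *pyk1* had 460, 2250 and 329 CPM in *hht2∆*, against 1730, 3176 and 2485 CPM in *smt0* (-1.28). Cultures A and C were low in each of these genes, while culture B lay within the range of *smt0* for *eno101* and *pyk1*. *pgi1* (-1.07), *pfk1* (-0.91), *tpi1* (-0.84) and *gpd3* (-0.60, adjusted *P* = 0.0376) were the others.

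Cultures A and C of *hht2∆* at T2W are those with reads of the deleted gene. With both left out, and culture B assumed to vary like the other groups, all 7 calls were lost, with -0.87 for *fba1*, -0.34 for *eno101*, -0.11 for *pyk1* and -0.06 for *gpd3*. Without culture A the calls of *pyk1* (-0.93) and *gpd3* (-0.48) were lost, and without culture C those of *pyk1* (-0.84), *tpi1* (-0.61) and *gpd3* (-0.40). The *tpi1* call was also lost without *smt0* culture B, and that of *gpd3* without *smt0* culture A or C. The 10 genes took 0.499%, 1.10% and 0.470% of gene reads in *hht2∆* at T2W, against 1.16%, 1.43% and 1.43% in *smt0*. In a fit of *hht2∆* and *smt0* at T2W alone none of the 7 passed (*fba1* -1.48, adjusted *P* = 0.117). In ERCC terms the 10 genes changed by -2.70 to -0.76, with a median of -2.17 beside -1.12 over all tested genes. There 7 genes were lower, all but *hxk2*, *tdh1* and *pgk1*, where 21.4% of all tested genes were, and none was called without culture A, culture C, both, or *smt0* culture B, or in a fit of these groups alone.

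In *asp1∆* the pattern changed with time. At T0 none of the 10 genes was called on the relative scale (3.22% of all tested genes were, in either direction). At T1D *tdh1* alone was higher, with 2237, 1802 and 2351 CPM in *asp1∆*, against 1031, 936 and 1439 CPM in *smt0* (log2 fold change 0.91, SE 0.252, adjusted *P* = 0.0113, with 6.2% of all genes higher). The groups did not overlap, but the call was lost without *asp1∆* culture C (0.82) or *smt0* culture A (0.84) or B (0.78). *gpd3* gave 25.5%, 29.5% and 23.7% of GAPDH reads in *asp1∆*, against 46.8%, 40.0% and 40.8% in *smt0*.

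At T1W 9 of the 10 genes were lower in *asp1∆*, where 28.2% of all tested genes were. *pfk1* had 746, 586 and 610 CPM in *asp1∆*, against 1226, 2055 and 2081 CPM in *smt0* (log2 fold change -1.47, adjusted *P* = 2.92e-07). *eno101* had 889, 774 and 870 CPM in *asp1∆*, against 1208, 2602 and 2522 CPM in *smt0* (-1.32, adjusted *P* = 0.000223). *gpd3* had 344, 354 and 362 CPM in *asp1∆*, against 707, 730 and 966 CPM in *smt0* (-1.18, adjusted *P* = 5.28e-05). None of these overlapped. *fba1* (-1.14), *pgi1* (-1.10), *pyk1* (-0.80), *hxk2* (-0.73), *pgk1* (-0.72) and *tdh1* (-0.71) were lower too, and *tpi1* (0.32) did not pass. The calls of *hxk2*, *pyk1*, *tdh1* and *pgk1* were lost without *smt0* culture B, with -0.56, -0.58, -0.54 and -0.48, or without *smt0* culture C, *asp1∆* culture B or *asp1∆* culture C. Without *asp1∆* culture A those of *hxk2*, *pyk1* and *pgk1* were lost. The 10 genes took 0.827%, 0.809% and 0.822% of gene reads in *asp1∆*, against 1.26%, 2.09% and 2.18% in *smt0*. The 6 genes of dividing cells summed to 1648 to 1704 CPM in *asp1∆* at this time, against 739 to 1028 CPM in *smt0*, and their part in the result was not tested.

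At T2W 4 genes were called in *asp1∆*, 3 higher and 1 lower, where 52.6% of all tested genes were called in either direction. *tpi1* had 1369, 1726 and 1404 CPM in *asp1∆*, against 452, 636 and 425 CPM in *smt0* (log2 fold change 1.57, adjusted *P* = 1.63e-06). *pgk1* had 1129, 1223 and 1080 CPM in *asp1∆*, against 776, 623 and 577 CPM in *smt0* (0.80, adjusted *P* = 0.016). *tdh1* had 2415, 2324 and 2136 CPM in *asp1∆*, against 1437, 1386 and 1424 CPM in *smt0* (0.69, adjusted *P* = 0.0175). The groups did not overlap for these 3 genes. *pfk1* was lower (-0.69, adjusted *P* = 0.00829). In ERCC terms *tpi1* changed by 0.15, *pgk1* by -0.57, *tdh1* by -0.63 and *pfk1* by -2.03. The *tdh1* call was lost without *smt0* culture B, and that of *pgk1* without *smt0* culture B or C. The 6 genes of dividing cells summed to 2086 to 2558 CPM in *asp1∆*, against 771 to 795 CPM in *smt0*, and their part was again not tested.

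In *arp42∆* *tdh1* was higher than in *smt0* at T0, T1D and T2W on the relative scale, and at T1W it changed by 0.56 and was not called. At T0 *tdh1* had 6530, 8671 and 6532 CPM in *arp42∆*, against 4291, 4540 and 3960 CPM in *smt0* (log2 fold change 0.76, adjusted *P* = 0.0237, the only call among the 10, with 8.85% of all genes higher). Its ERCC change was -0.10, and the call was lost without *arp42∆* culture B (0.63) or *smt0* culture C (0.71). At T1D 5 of the 10 genes were higher, where 14.7% of all tested genes were. *tdh1* had 4656, 4203 and 2454 CPM in *arp42∆*, against 1031, 936 and 1439 CPM in *smt0* (1.73, adjusted *P* = 4.11e-07). *eno101* had 3889, 4094 and 2070 CPM in *arp42∆*, against 1008, 1053 and 1906 CPM in *smt0* (1.34, adjusted *P* = 0.00051). *pgk1* had 2636, 1695 and 1513 CPM in *arp42∆*, against 1066, 610 and 991 CPM in *smt0* (1.13, adjusted *P* = 0.00172). *arp42∆* culture C was the lowest each time and still above all of *smt0*. *gpd3* (0.97) and *fba1* (0.93) were the others, and *gpd3* had 1956, 1515 and 1235 CPM in *arp42∆*, against 866, 596 and 947 CPM in *smt0*.

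The change over the first day also differed between *arp42∆* and *smt0* for these 5 genes. Reads of *arp42* in *arp42∆* were at 9.63 to 34.1% of *smt0* at T0 and at 70.2 to 96.4% at T1D. Whether the T0 and T1D libraries of *arp42∆* are alike in the deletion was not settled. The difference of the changes was 1.43 for *pgk1* (adjusted *P* = 0.00668), 1.37 for *gpd3* (0.00244), 1.27 for *eno101* (0.0225), 1.06 for *fba1* (0.0136) and 0.97 for *tdh1* (0.0392) on the relative log2 scale. A positive difference was called for 11.2% of all tested genes. *gpd3* rose further in *arp42∆* (5.19, against 3.82 in *smt0*). *pgk1* (-0.47, against -1.89), *eno101* (-0.20, against -1.47) and *tdh1* (-0.94, against -1.91) fell less, and *fba1* changed by 0.14, against -0.93. The number of differences called was 2 without *arp42∆* T1D culture B or *smt0* T1D culture B, and 3 without culture A of either at T1D. For *hht2∆*, *iec1∆*, *asp1∆* and *ies2∆* no difference of the changes passed on this scale, where 1.71%, 3.1%, 5.22% and 5.39% of all tested genes did in either direction.

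Later other genes were called in *arp42∆*, and none of the 5 genes of T1D was called at T1W. At T1W *pyk1* was lower, with 1722, 1562 and 2522 CPM in *arp42∆*, against 2336, 5018 and 4665 CPM in *smt0* (log2 fold change -1.05, adjusted *P* = 0.0425, with 5.54% of all genes lower). The groups overlapped, and the call was lost without culture A or B of *arp42∆* or culture B or C of *smt0*. At T2W *tdh1* was higher, with 3810, 3482 and 2239 CPM in *arp42∆*, against 1437, 1386 and 1424 CPM in *smt0* (1.17, adjusted *P* = 0.00109). *tpi1* had 817, 1008 and 676 CPM in *arp42∆*, against 452, 636 and 425 CPM in *smt0* (0.72, adjusted *P* = 0.0441), and 9.29% of all tested genes were higher. The groups did not overlap for either gene. Their ERCC changes were -1.005 and -1.50, and the *tpi1* call was lost without *arp42∆* culture A or B or *smt0* culture A or C.

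In *ies2∆* the GAPDH genes, *pgk1* and *eno101* were above *smt0* at all 3 times on the relative scale, within the limit set by the batch. At T0 *tdh1* had 22379, 22174 and 12316 CPM in *ies2∆*, against 4291, 4540 and 3960 CPM in *smt0* (log2 fold change 2.15, adjusted *P* = 1.64e-08). *eno101* had 12686, 12450 and 8853 CPM in *ies2∆*, against 4027, 3597 and 3356 CPM in *smt0* (1.63). *hxk2* had 2049, 1881 and 1343 CPM in *ies2∆*, against 843, 784 and 687 CPM in *smt0* (1.19). The groups did not overlap for any of these, and 7 of the 10 genes were higher, where 11.1% of all tested genes were. *fba1* (1.04), *gpd3* (1.00), *pgk1* (0.93) and *pfk1* (0.87) were the others. The *pgk1* call was lost without *ies2∆* culture A or B or *smt0* culture B or C. The 10 genes took 6.40%, 6.27% and 4.37% of gene reads in *ies2∆* at T0, against 2.90%, 2.39% and 2.16% in *smt0*. The lowest value was that of culture C, the library with 217% of the *smt0* reads of the deleted gene, and all 7 calls stayed without it.

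At T1D 8 of the 10 genes were higher in *ies2∆*, where 21.5% of all tested genes were. *tdh1* had 9020, 3921 and 11147 CPM in *ies2∆*, against 1031, 936 and 1439 CPM in *smt0* (log2 fold change 2.82, adjusted *P* = 3.41e-12). *eno101* had 5342, 3210 and 6188 CPM in *ies2∆*, against 1008, 1053 and 1906 CPM in *smt0* (1.89). *gpd3* had 3142, 1855 and 3484 CPM in *ies2∆*, against 866, 596 and 947 CPM in *smt0* (1.82). Culture B, the library with 37.3% of the *smt0* reads of the deleted gene, was the lowest of *ies2∆* in all 3 genes and lay above all of *smt0*, and 8 genes were called without it. *pgk1* (1.66), *hxk2* (1.31), *fba1* (1.20), *pfk1* (1.10) and *pgi1* (0.61) were the others, and the *pgi1* call was lost without culture A or C of *ies2∆* or culture A or B of *smt0*. At T1W 4 genes were higher, where 6.01% of all tested genes were. *tdh1* had 7568, 7089 and 8388 CPM in *ies2∆*, against 1353, 2193 and 2074 CPM in *smt0* (2.04). *pgk1* had 3262, 3107 and 3399 CPM in *ies2∆*, against 810, 1502 and 1245 CPM in *smt0* (1.46). *gpd3* had 1911, 2088 and 2002 CPM in *ies2∆*, against 707, 730 and 966 CPM in *smt0* (1.32). The groups did not overlap, and *eno101* (1.09) was the other gene, whose call was lost without *smt0* culture A (0.85).

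With both GAPDH genes high in *ies2∆*, the *gpd3* share was below that of *smt0*, at 0.635% at T0, 28.2 ± 4.42% at T1D and 21.5% at T1W, against 1.38%, 42.5 ± 3.71% and 31.3% in *smt0*. In *arp42∆* it was 0.623% at T0, 30.8 ± 3.56% at T1D and 23.5% at T2W, where *smt0* had 30.6% at T2W, and in *asp1∆* it was 0.926% at T0, 26.2 ± 2.98% at T1D and 24.8% at T2W. In each of these the cultures did not overlap with *smt0*. The share was above *smt0* without overlap at T0 in *hht2∆* (1.73%, and 1.51% and 1.66% in cultures B and C), *pht1∆* and *iec1∆* (2.55%). Cultures A and B of *ies2∆* at T0 had 0.623% and 0.587%. All other groups overlapped with *smt0*, and the exact permutation *P* was 0.1 at best, the smallest possible, for every one.

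The 6 genes of dividing cells also stood apart in some of the groups where glycolysis genes were called, and in some where none was called on the relative scale. At T0 their summed level was 1339 to 1364 CPM in *ies2∆* and 1463 to 1552 in *arp42∆*, against 1572 to 1628 CPM in *smt0*. In strains with no call at T0 it was 1210 to 1382 CPM in *hht2∆*, 1180 to 1296 in *iec1∆* and 1326 to 1494 in *asp1∆*. At T1W it was 696 to 729 CPM in *ies2∆*, against 739 to 1028 CPM in *smt0*. At T2W it was 895 to 1113 CPM in *hht2∆*, 876 to 931 in *pht1∆*, 909 to 1152 in *iec1∆* and 836 to 1040 in *arp42∆*, against 771 to 795 CPM in *smt0*. The ranges overlapped with *smt0* in *pht1∆* at T0, in *asp1∆*, *arp42∆* and *ies2∆* at T1D and in *arp42∆* at T1W. None of the 6 was at 0, and their part in the calls was not tested.

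**Figure D5:**
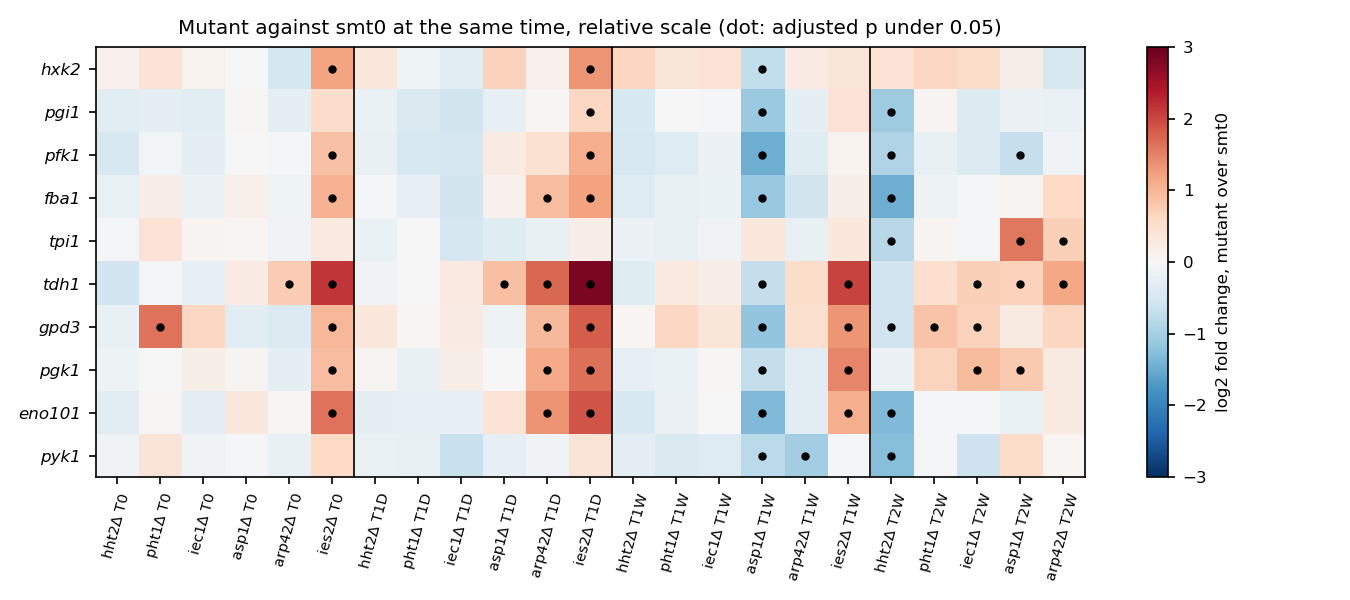
Log2 fold change of each of the 10 genes in each mutant compared to *smt0* at the same time on the relative scale, as a colour from blue (lower) to red (higher), with a dot for adjusted *P* under 0.05. The highest value is 2.82 for *tdh1* in *ies2∆* at T1D, and *pfk1* in *asp1∆* at T1W and *fba1* in *hht2∆* at T2W are lowest at -1.47.

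On the ERCC scale the changes of the glycolysis genes at T1D spanned the median of all genes in each mutant of the first batch. All 10 genes were lower than in *smt0* in *pht1∆* (log2 fold changes -3.44 to -2.94, median of all genes -3.09), *iec1∆* (-4.41 to -3.21, -3.60), *asp1∆* (-4.88 to -3.31, -4.36) and *arp42∆* (-6.93 to -4.81, -6.52). The shares of all tested genes that were lower were 93.8%, 93.7%, 96.4% and 98.4%, so the counts of glycolysis genes were near the background. In *hht2∆* the genes changed by 0.58 to 1.34 (-0.05 to 0.65 without culture A) and none was called, with 0.938% of all tested genes called and a median of 0.92. In *ies2∆* the direction depended on a shift of 3.70 log2 units for that batch. The methods describe a batch correction from the ERCC values at T0, and whether it was also applied to the later times is not clear from them. Without the shift, or with the shift at T0 only, 6 genes were lower in *ies2∆* at T1D and *tdh1* changed by 0.04. With all 9 libraries shifted 6 were higher, where 5.84% of all tested genes were, *tdh1* (3.74), *eno101* (2.91), *gpd3* (2.62), *pgk1* (2.42), *pfk1* (2.14) and *hxk2* (2.05). These calls also rest on *smt0* cultures B and C at T1D, and without either of these 1 gene was called, and 3 were without *ies2∆* culture A or C, while 6 were without its culture B. The *hxk2* call was also lost when *ies2∆* T0 culture C and the culture A libraries of *hht2∆* were left out of the fit.

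The change over the first day on the ERCC scale was lower than in *smt0* for all 10 genes in *pht1∆* (differences of the changes -4.39 to -2.65), *iec1∆* (-4.35 to -2.79), *asp1∆* (-5.20 to -3.81) and *arp42∆* (-5.93 to -4.29). So it was for 87.7%, 90.6%, 95.0% and 96.3% of all tested genes, and the medians over all tested genes were -2.85, -3.43, -4.62 and -5.61. For *pht1∆* 1 of the 10 calls was left without *smt0* T1D culture A. In *hht2∆* (0.96 to 1.89, and 0.51 to 1.63 without culture A) and *ies2∆* (0.80 to 1.91, and 0.60 to 1.70 without T0 culture C) none was called, with 1.04% and 0.59% of all tested genes called in either direction.

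Later the ERCC changes of the glycolysis genes moved away from the median in some mutants. At T1W 9 genes were lower in *asp1∆*, where 50.0% of all tested genes were, with changes of -2.83 to -0.92 and a median of -2.34 beside -1.53 over all tested genes. *tpi1* was the one that did not pass. Without *smt0* culture A 2 of these calls were made, without *asp1∆* culture C 3, and none in a fit of these groups alone. In *arp42∆* all 10 were lower at T1W (-4.13 to -3.04, beside a median of -3.48), as were 92.4% of all tested genes. In *ies2∆* all 10 were higher (3.82 to 5.82, beside a median of 3.59), as were 97.1% of all tested genes, and none was called without the shift of that batch. At T2W *pfk1* alone was lower in *asp1∆*, where 35.7% of all tested genes were, and its call was lost without *asp1∆* culture A or C or *smt0* culture B (-1.30). In *arp42∆* 9 genes were lower at T2W (-2.55 to -1.005 over the 10, beside a median of -1.97), where 79.3% of all tested genes were, and *tdh1* did not pass. None of them was called without *arp42∆* culture B or *smt0* culture B, and 2 were without *arp42∆* culture A.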

How the data were processed

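Total RNA of 3 cultures per group was depleted of ribosomal RNA and sequenced as pairs of 58-base reads with a stranded kit. Per the methods and the submitters' processing notes, the authors used bcl2fastq 2.20.0.422, STAR 2.7.9a and featureCounts 1.5.1 with the Ensembl ASM294v2 annotation. They deposited raw counts per gene (7014 genes) and per ERCC transcript (92), with no normalization. Whether strand was used in counting, and how reads mapping to several places were treated, is not given in the sources used here. Of the 16 chromatin immunoprecipitation samples of the series nothing is analysed here.

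Genes above 1 CPM in at least 3 libraries were kept (6608). One edgeR quasi-likelihood model (edgeR 4.0.16, limma 3.58.1, R 4.3.3) was fitted to all 27 groups without a replicate block, with library sizes from the gene totals with TMM (relative scale) or from the ERCC totals with TMM (ERCC scale). On the ERCC scale the 9 *ies2∆* libraries were shifted together by 3.70 log2 units, so that their T0 ratio of gene to ERCC reads equalled that of the 72 libraries of the first batch. *P* values were adjusted by Benjamini-Hochberg over all genes within each comparison, with a threshold of 0.05. Single values per culture were compared by exact two-sided permutation tests. Levels per kb used the exon length in the count table.

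All 10 genes are named. Values per culture are given for *tdh1* and *gpd3*, for the highest and the lowest gene in each *smt0* comparison and for at most 3 called genes in each mutant comparison. The genes, the lists and the tests were chosen with earlier results of these data known. No libraries of the same group held identical counts, and replicates of a group always differed by more than sampling noise (chi-square per degree of freedom at least 3.50). Libraries of different groups were not checked for identical counts. The cultures were biological triplicates per the methods. The T0 and T1D cells came from the same cultures, but whether a letter marks a culture is not given in the sources used here. Deviations from the group means correlated above 0.1 in all 3 letters only for *hht2∆* against *smt0* at T2W (0.48, 0.366 and 0.268), and for *smt0* at T1D and T0 the correlations were -0.0695, 0.0639 and 0.0386. The alternatives were DESeq2 1.42.0, ERCC totals without TMM, no filter or a mean of at least 10 counts, a fit of the groups compared alone, a replicate block, other shifts of *ies2∆*, and leaving out libraries. Promoters and coding sequences came from RefSeq (ASM294v3), matched by gene ID for all 10 genes.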

Additional observations from a re-analysis of the deposited data

Results flagged for a closer look

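The change over the first day differed between a mutant and *smt0* by the test of the difference itself in the following cases. On the ERCC scale this held for 10 of 10 genes in each of *pht1∆*, *iec1∆*, *asp1∆* and *arp42∆*, and for most other genes as well. On the relative scale the difference was -1.57 for *gpd3* in *pht1∆*. In *arp42∆* it was 1.43 for *pgk1*, 1.37 for *gpd3*, 1.27 for *eno101*, 1.06 for *fba1* and 0.97 for *tdh1*. Reads of the deleted gene in *arp42∆* were at 9.63 to 34.1% of *smt0* at T0 and at 70.2 to 96.4% at T1D. Whether these libraries are alike in the deletion was not settled. No explanation of these differences was tested.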

How the results depend on the processing

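The alternatives were run for *smt0* over time, for each mutant against *smt0* at each time, for each mutant at T1D against T0 and for the changes over the first day. Of 334 log2 fold changes of the 10 genes called there, 224 stayed past the threshold in the same direction under every alternative run, 110 were lost under at least 1, and 5 of these changed sign. On the ERCC scale 141 of 201 stayed, and on the relative scale 83 of 133. With the culture letter as a replicate block, alone or within strain, 0 of 476 values were lost. At T1D in *smt0* on the ERCC scale 8 genes were called with the letter as a block and without it, and 10 with a block within strain, which changed no other call.

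In a fit of the compared groups alone the number of genes called was 4 in place of 8 for *smt0* at T1D on the ERCC scale, 1 in place of 6 for *ies2∆* against *smt0* at T1D on the ERCC scale, 5 in place of 8 for the same strains on the relative scale, and 3 in place of 5 for the change over the first day in *arp42∆* on the relative scale. The same fit left 0 of 7 calls in *hht2∆* and 0 of 3 in *iec1∆* at T2W and 0 of 1 in *arp42∆* at T1W on the relative scale. On the ERCC scale it left 0 of 9 in *asp1∆* at T1W, 0 of 7 in *hht2∆*, 0 of 1 in *asp1∆* and 0 of 9 in *arp42∆* at T2W, and at T0, where 0 were called, it called 9 in *arp42∆*, 6 in *ies2∆*, 4 in *hht2∆*, 2 each in *asp1∆* and *iec1∆* and 1 in *pht1∆*. For T1D against T0 within *ies2∆* it called 4 in place of 9 on the relative scale. Without T1D culture B it was 5 in place of 9 within *ies2∆* on that scale. Within *hht2∆* 5 in place of 9 were called on that scale without culture A. DESeq2 called 2 genes in place of 1 in *asp1∆* at T1D and in *pht1∆* at T2W and 4 in place of 2 in *arp42∆* at T2W on the relative scale, and 3 in place of 1 in *asp1∆* at T2W on the ERCC scale. The *pyk1* call in *arp42∆* at T1W was lost without a filter on low counts. Without the shift of the *ies2∆* libraries, or with the shift at T0 only, 6 genes were lower in *ies2∆* at T1D on the ERCC scale. Of the 6 genes called higher with it, *hxk2* (-1.65, adjusted *P* = 0.0163 by edgeR without the shift) and *pfk1* (-1.56) were then among those lower, and *pgk1* (-1.28), *gpd3* (-1.08), *eno101* (-0.79) and *tdh1* (0.04) did not pass. Without the shift 10 genes were lower in *ies2∆* at T0, in place of 0, and under either choice 0 of 10 were called at T1W. With the shift at T0 only, 9 genes were lower at T1D than at T0 within *ies2∆*, in place of 1 higher, and 7 genes differed in their change over the first day in *ies2∆*, in place of 0. Leaving out 1 library at a time gave 4 to 10 genes for *smt0* at T1D, 1 to 8 for *ies2∆* against *smt0* at T1D and 1 to 10 for the change over the first day in *pht1∆* on the ERCC scale. On the relative scale it gave 5 to 9 for *smt0* at T1D, 0 to 1 for *iec1∆* and 0 to 2 for *asp1∆* against *smt0* at T1D, and 2 to 6 for the change over the first day in *arp42∆*. The fits without *hht2∆* cultures A and C at T2W were chosen after seeing the data, as were the fits of other listed genes without single *smt0* libraries, the alternatives for T0, T1W and T2W, for T1D against T0 within a mutant and for the changes over the first day. The cause was not tested in any of these.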
